A study of Mus musculus with 10 samples.

Results

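The 8 genes described here encode the RUNX factors Runx1, Runx2 and Runx3, their shared partner Cbfb, and the C/EBP factors Cebpa, Cebpb, Cebpd and Cebpg. All peaks from 50 kb before to 50 kb after each gene (mm10) were taken from the 10 deposited ATAC-seq peak lists. ATAC-seq cuts accessible DNA with a transposase, and a peak marks a stretch cut more often than its surroundings. Peaks of the 10 lists that shared at least 1 bp were joined to an atlas of 208851 regions, and 172 of these lie in the 8 windows. A region with a peak in both libraries of a stage is called an element of that stage.

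Each of 5 stages had 2 libraries. The MEF cells are embryonic fibroblasts of a C57BL/6 x 129 background with the OKSM cassette (Oct4, Klf4, Sox2 and Myc, which together reprogram fibroblasts) at Col1a1 and the doxycycline-dependent activator M2rtTA at Rosa26. They were kept without doxycycline and not sorted, and the number of embryos behind them is not given in the sources used here. DAY3, DAY6 and DAY9 are the same kind of cells after 3, 6 and 9 days in stem cell medium with 1 µg/ml doxycycline and 50 µg/ml ascorbic acid. DAY3 cells were unsorted, and DAY6 and DAY9 cells were sorted for SSEA1, an early surface marker of reprogramming cells, so sorting and time cannot be told apart between DAY3 and DAY6. The ESC cells are the single line V6.5 of the same background, unsorted, without the cassette and doxycycline, grown on irradiated feeder cells that may contribute fibroblast DNA. In such bulk samples a missing peak cannot be told apart between fewer cells with open DNA and less opening in each cell.

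RUNX proteins bind DNA through the Runt domain, and Cbfb, which does not itself contact DNA, strengthens that binding. Runx1 is known for blood formation, Runx2 for bone and Runx3 for neurons and T cells. Each of the 3 Runx genes is known to have a distal and a proximal gene start; for Runx2 only the distal one was used here. C/EBP proteins are leucine zipper factors that bind as dimers. Cebpa acts in fat, liver and myeloid cells, Cebpb and Cebpd act early in fat cell formation and in inflammation, and Cebpg lacks a strong activation domain and pairs with the others. Factors of both families occupy enhancers of fibroblasts, which are shut down when these cells are reprogrammed.

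The 250 bases before each listed Runx start are printed because 4 of these 5 starts were listed in some libraries only, while the starts of Cbfb, Cebpa, Cebpb and Cebpg were listed in all 10. They are RefSeq sequences of GRCm38.p6, the assembly that mm10 names, in the direction of transcription. Capitals mark matches to the RUNX core motif TGTGGT, or ACCACA when read on the other strand.
Runx1 distal start, chr16:92826075-92826324, minus strand: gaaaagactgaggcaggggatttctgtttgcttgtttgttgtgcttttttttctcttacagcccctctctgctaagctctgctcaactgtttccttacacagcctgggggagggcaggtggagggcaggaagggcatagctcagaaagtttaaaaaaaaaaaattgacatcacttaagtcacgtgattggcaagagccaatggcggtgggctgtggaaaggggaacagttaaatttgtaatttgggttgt
Runx1 proximal start, chr16:92697330-92697579, minus strand: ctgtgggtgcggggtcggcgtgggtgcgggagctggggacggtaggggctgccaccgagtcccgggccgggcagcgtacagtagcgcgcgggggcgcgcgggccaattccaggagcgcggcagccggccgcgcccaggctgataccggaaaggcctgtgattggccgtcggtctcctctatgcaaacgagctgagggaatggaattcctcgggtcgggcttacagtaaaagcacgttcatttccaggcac
Runx2 start, chr17:44814628-44814877, minus strand: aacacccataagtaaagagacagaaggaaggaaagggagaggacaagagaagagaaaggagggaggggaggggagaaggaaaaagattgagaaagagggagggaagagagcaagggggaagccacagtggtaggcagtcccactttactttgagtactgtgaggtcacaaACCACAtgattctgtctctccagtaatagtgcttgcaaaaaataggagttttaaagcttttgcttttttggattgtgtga
Runx3 distal start, chr4:135120395-135120644, plus strand: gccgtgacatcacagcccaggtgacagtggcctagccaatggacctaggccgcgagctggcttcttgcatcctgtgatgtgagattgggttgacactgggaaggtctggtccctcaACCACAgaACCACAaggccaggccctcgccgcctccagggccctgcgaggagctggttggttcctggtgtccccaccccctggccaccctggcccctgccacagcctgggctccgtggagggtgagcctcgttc
Runx3 proximal start, chr4:135152295-135152544, plus strand: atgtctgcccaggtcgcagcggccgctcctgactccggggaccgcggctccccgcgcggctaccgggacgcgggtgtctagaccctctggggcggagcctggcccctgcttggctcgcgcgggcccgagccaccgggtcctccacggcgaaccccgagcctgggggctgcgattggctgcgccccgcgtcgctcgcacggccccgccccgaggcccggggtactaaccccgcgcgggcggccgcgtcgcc

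Of the 8 genes, 7 matched the RefSeq promoter table, with 9 starts. The RUNX core occurred at 2 of them. The Runx2 sequence holds 1 match that begins 80 bases before the start, and the Runx3 distal sequence holds 2, at 134 and 126 bases. Of 32851 RefSeq promoters of the same length, 14.0% hold the motif on either strand. A C/EBP motif, TTGCNNAA, occurred only in the Runx2 sequence among the 9, against 9.56% of all promoters. The AP-1 motif TGANTCA occurred in none of the 9, against 6.75%. These are letter matches and not measured binding, and the motifs do not overlap one another here.

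The starts also differ in base composition. GC content was 45.6% at the Runx1 distal start and 44.8% at the Runx2 start, below the median of 52.4% over all promoters. It was 65.2% at the Runx3 distal start, 67.6% at the Runx1 proximal start and 78.8% at the Runx3 proximal start. The CpG frequency relative to that expected from base composition was 0.165, 0.0 and 0.302 at the Runx1 distal, Runx2 and Runx3 distal starts. It was 0.978 and 0.983 at the Runx1 and Runx3 proximal starts, with a median of 0.373 over all promoters. Cbfb, Cebpa, Cebpb and Cebpg had values of 1.0, 0.801, 0.985 and 0.942.

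Openness at the starts is given as the authors' fold enrichment, the height of a peak's summit relative to its local background. Depth differed between libraries, so folds of different lists are set side by side as a description. The Runx1 proximal start (region chr16:92696522-92698173) had a peak in all 10 libraries, with folds of 9.42 and 6.96 at MEF, 7.62 and 10.2 at DAY3, 9.79 and 12.1 at DAY6, 13.1 and 13.0 at DAY9, and 10.9 and 7.45 at ESC. The Runx1 distal start had a peak in MEF replicate 2 alone, with a fold of 2.79. The Runx2 start (region chr17:44814484-44815328) was open early: its folds were 10.6 and 3.43 in MEF and 6.49 and 4.94 in DAY3, and no list of DAY6, DAY9 or ESC had a peak there. Thus the CpG-rich Runx1 start was listed at every stage, and the Runx2 start, without a CpG in the printed bases, was listed only in the 4 libraries of MEF and DAY3.

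Runx3 starts were barely listed. The distal start had a peak in MEF replicate 1 alone, with a fold of 3.85. The proximal start had peaks in DAY3 replicate 2 (fold 4.18), DAY6 replicate 1 (3.32) and both DAY9 libraries (2.8 and 2.98). The joined region around it, chr4:135152164-135153110, also holds a peak of MEF replicate 1 with a fold of 3.92, which does not overlap the stretch from 250 bases before to 50 after the start. DAY9 was the only stage with the Runx3 proximal start in both libraries, although that start is the most GC-rich of the 5 printed.

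The remaining starts were open throughout. The Cbfb start (chr8:105170160-105171828) had folds of 10.5 and 6.88 in MEF, between 8.34 and 14.0 in the 6 reprogramming libraries, and 9.98 and 9.24 in ESC. The Cebpa start (chr7:35118186-35119771) had folds of 11.2 and 9.07 at MEF and of 6.89 and 8.25 at ESC, and the Cebpb start (chr2:167688210-167689993) of 5.84 and 4.26 at MEF and of 6.11 and 4.65 at ESC. The Cebpg start (chr7:35055743-35056972) had folds of 11.8 and 9.22 in MEF and of 13.6 and 10.2 in ESC. Cebpd has no entry in the promoter table; the region that covers its lower end (chr16:15886554-15888258) was listed in all 10 libraries, with folds of 8.52 and 7.24 in MEF and of 4.49 and 4.96 in ESC. Each of these 5 regions was thus present in fibroblasts, at every day of reprogramming and in stem cells.

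**Figure D1:**
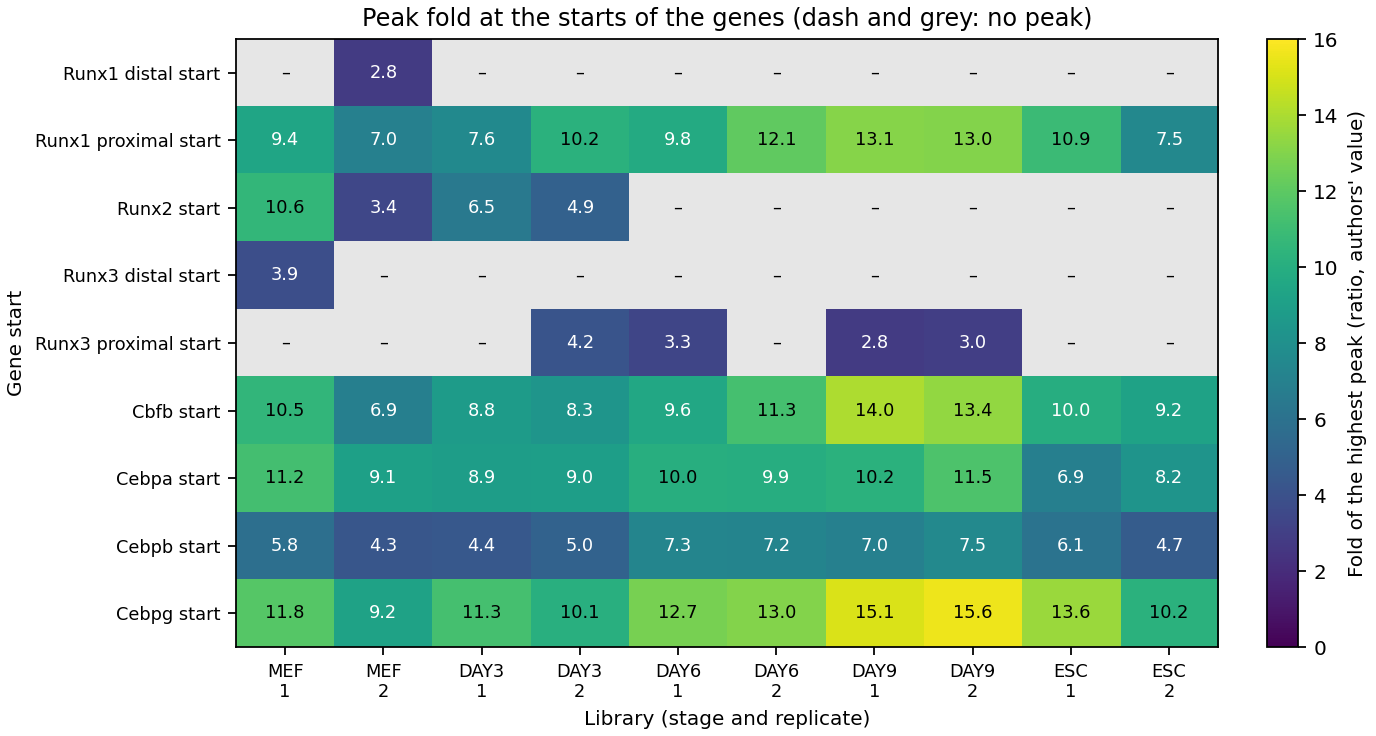
Authors' fold enrichment (colour and printed number, a ratio) of the highest peak at each of 9 gene starts (rows) in each of the 10 libraries (columns); grey cells with a dash have no peak. The Runx2 start has values in MEF and DAY3 only, while the Runx1 proximal start has a value in all 10 libraries.

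Counted over the 8 windows, 47 elements belonged to MEF, 48 to DAY3, 41 to DAY6, 65 to DAY9 and 40 to ESC. The number of regions with a peak was 81 and 63 at MEF, 52 and 56 at DAY3, 58 and 49 at DAY6, 72 and 77 at DAY9, and 63 and 48 at ESC. MEF replicate 1 and ESC replicate 1 each had more than their partner. With MEF replicate 2 left out the MEF count was 81, and with ESC replicate 2 left out the ESC count was 63. The lists hold between 45497 (DAY3 replicate 2) and 88980 peaks (ESC replicate 2), and the background pileup, a measure of relative depth, ran from 2.327 to 8.322. A single library listed 60 of the 172 regions (34.9%, atlas 37.9%). With all lists cut to 45497 peaks, the windows held 29 MEF and 21 ESC elements.

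Runx1, the gene with the most MEF elements, had 20 and 20 regions with a peak at MEF, 13 and 15 at DAY3, 15 and 12 at DAY6, 20 and 19 at DAY9, and 14 and 9 at ESC. MEF and DAY9 had the highest values of Runx1. Runx3 had 8 and 7 at MEF, 1 and 2 at DAY3, 2 and 2 at DAY6, 6 and 7 at DAY9, and 9 and 5 at ESC. DAY3 and DAY6 had the lowest values of Runx3. How many of all genes set stages apart in these ways was not counted, and the DAY3 lists are the shortest. Runx2 had 22 and 12 at MEF, 12 and 12 at DAY3, 13 and 11 at DAY6, 15 and 16 at DAY9, and 13 and 10 at ESC, so the 2 MEF libraries differ by more than the 2 of any other stage.

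Cbfb had between 8 and 12 regions with a peak in every library: 11 and 8 at MEF, 8 and 8 at DAY3, 10 and 9 at DAY6, 11 and 11 at DAY9, and 11 and 12 at ESC. The C/EBP windows had fewer. Cebpa ranged from 3 (ESC replicate 2) to 6, Cebpb from 3 (ESC replicate 2) to 7 (MEF replicate 1 and DAY9 replicate 2), Cebpd from 2 (MEF replicate 2) to 6 (DAY9 replicate 2), and Cebpg from 3 to 6. The Cebpa and Cebpg genes are neighbours on chromosome 7, and their windows share 2 regions.

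No gene differed between stages past the threshold. An exact permutation test of the number of regions with a peak, over 8 samples and adjusted by Benjamini-Hochberg over 19302 protein-coding genes, called 0 genes (0.0%), and 3205 genes (16.6%) had an unadjusted p under 0.05. None of the 8 genes was among these. The smallest p this test can give is 0.00238, and the smallest adjusted p over all genes was 0.233. By the exact permutation test, Runx1 had p = 0.112 (adjusted 0.318) and Runx3 p = 0.152 (adjusted 0.349), with 85.3% and 86.2% of their variation lying between stages. The other 6 genes had exact permutation p-values from 0.274 (Cebpb, adjusted 0.451) to 0.843 (Cebpd, adjusted 0.876). With the 10 libraries taken separately, the same exact test also called 0 genes, with 8247 at an unadjusted p under 0.05. Nothing in the labels says that the 2 libraries of a stage came from separate cultures, so these p-values measure only the spread between libraries.

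**Figure D2:**
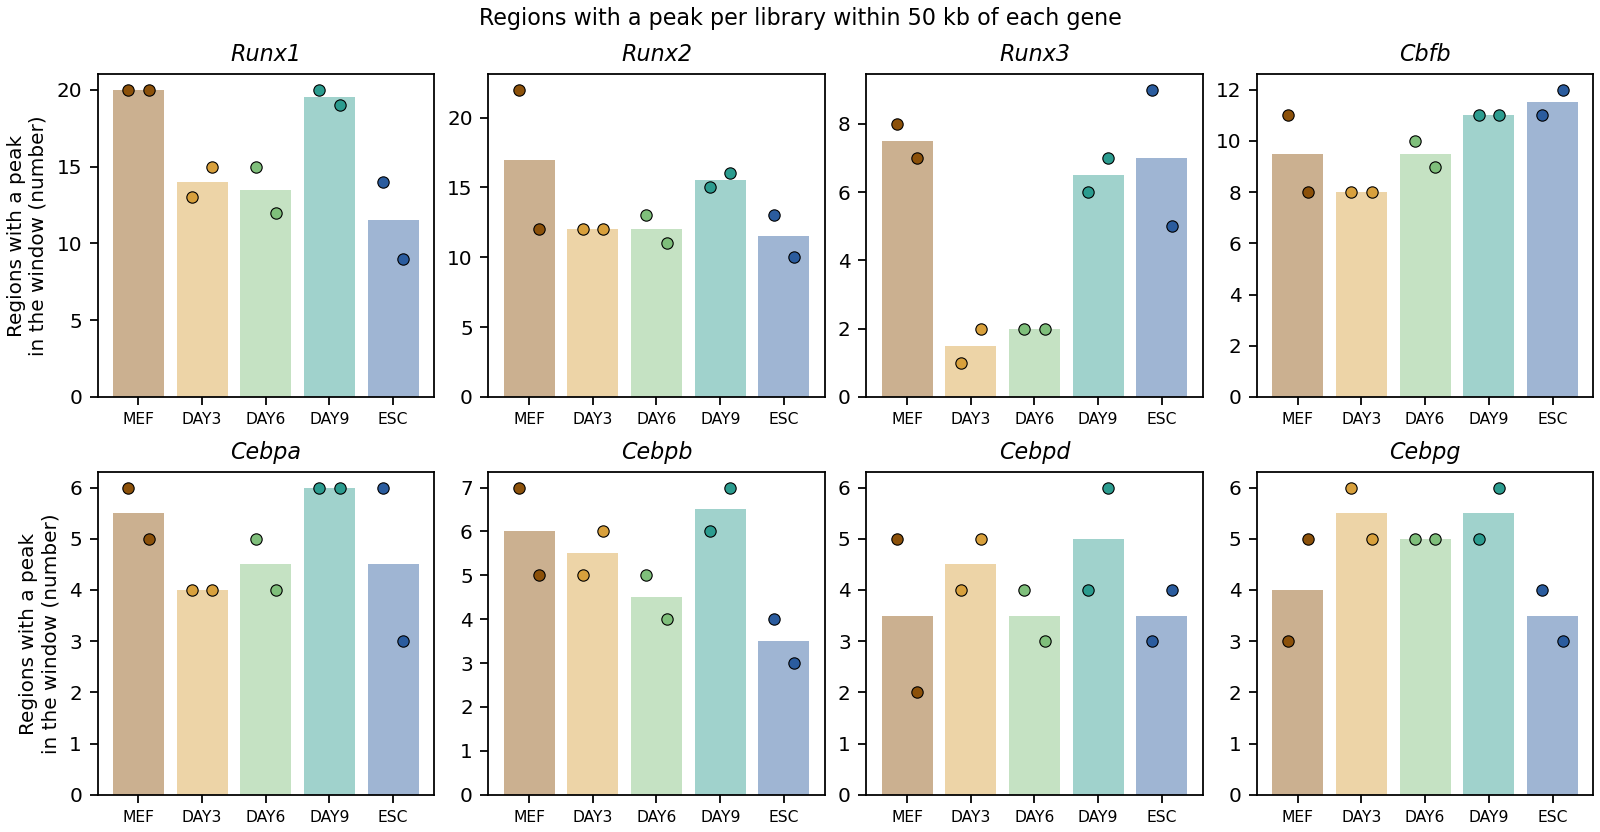
Number of regions with a peak in each gene's window (y axis) for each of the 10 libraries grouped by stage (x axis); each point is 1 library and each bar the mean of 2. Runx3 has 1 to 2 regions in the DAY3 and DAY6 libraries and 5 to 9 in the others, and Cbfb stays between 8 and 12.

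Most MEF elements that closed were first absent at DAY3. Of the 47 MEF elements, 22 (46.8%) had no peak in either DAY3 library, against 47.1% of all 46089 MEF regions of the atlas. A further 4 were first absent at DAY6 (8.51%, atlas 6.06%), 1 at DAY9 (2.13%, atlas 3.06%) and 2 in ESC (4.26%, atlas 3.36%). The remaining 18 (38.3%, atlas 40.4%) had a peak at every stage. These shares are near those of the whole atlas, so they are no result about these 8 genes. With all lists cut to the same number of peaks, 7 of 29 MEF elements (24.1%) lacked a DAY3 peak, against 37.3% of the atlas.

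Once absent, MEF elements mostly remained so. Of the 47, 20 (42.6%, atlas 37.7%) had no peak in any later library. Both libraries of a later stage listed 2 of the 29 elements that had been absent (6.9%, atlas 11.2%), and both of these lie inside Runx1. No peak was listed at DAY6 for 25 of the 47 (53.2%, atlas 48.2%), at DAY9 for 26 (55.3%, atlas 49.7%), and in ESC for 25 (53.2%, atlas 50.5%).

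The genes differed in how many elements they kept. Runx3 kept none: all 5 of its MEF elements were absent at DAY3 and from every later list. Runx1 had 9 of 15 absent at DAY3, 2 first absent at DAY6, 1 first absent in ESC, and 3 present throughout. Runx2 had 3 of 9 absent at DAY3, 2 first absent at DAY6, 1 at DAY9, 1 in ESC, and 2 present throughout. Taken as a group, 17 of 29 MEF elements of the Runx genes (58.6%, atlas 47.1%) lacked a DAY3 peak and 5 (17.2%, atlas 40.4%) were never absent. The share without a DAY3 peak depended on list length, as the counts with lists of equal length below show.

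The windows of Cbfb and the C/EBP genes had more constant elements. That of Cbfb kept 6 of 8, with 2 absent from DAY3 onward. Besides the Cbfb start, those kept lie outside Cbfb. They are between genes, at the start of D230025D16Rik, inside B3gnt9 and inside Fbxl8 and Tradd. Cebpa kept 2 of 4, Cebpb 2 of 3, Cebpd 2 of 2 and Cebpg 1 of 1. Of the 10 C/EBP elements in all, 3 (30.0%, atlas 47.1%) lacked a DAY3 peak and 7 (70.0%, atlas 40.4%) were never absent, all 7 of them in all 10 libraries. These 7 include the starts of Cebpa, Cebpb and Cebpg and the region at the lower end of Cebpd. In the atlas, 4.98% of MEF regions at a listed gene start lacked a DAY3 peak, against 59.0% away from starts. The pooled atlas share is thus no like yardstick for so few elements. The difference between the Runx and C/EBP windows was not tested, and the counts per gene are small.

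Several per-gene counts rest on weak peaks or on 1 library. With lists of equal length, Runx3 had 0 MEF elements, Runx1 had 7, of which 2 lacked a DAY3 peak, and Cebpa had 2, with 0 lacking one. Runx2 then had 8, of which 3 lacked a DAY3 peak, where 37.3% of the MEF regions of the atlas did. Without MEF replicate 2, Runx2 had 22 MEF elements, of which 14 lacked a DAY3 peak, and Runx1 had 20, of which 14 did. The same omission gave 8 MEF elements for Runx3, 7 for Cebpb (3 without a DAY3 peak), 5 for Cebpd (2 without one) and 3 for Cebpg, and 4 Cbfb elements without one. Without MEF replicate 1, Cebpg and Cebpb each had 5 MEF elements, of which 3 lacked a DAY3 peak, and Runx2 had 5 that lacked one.

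**Figure D3:**
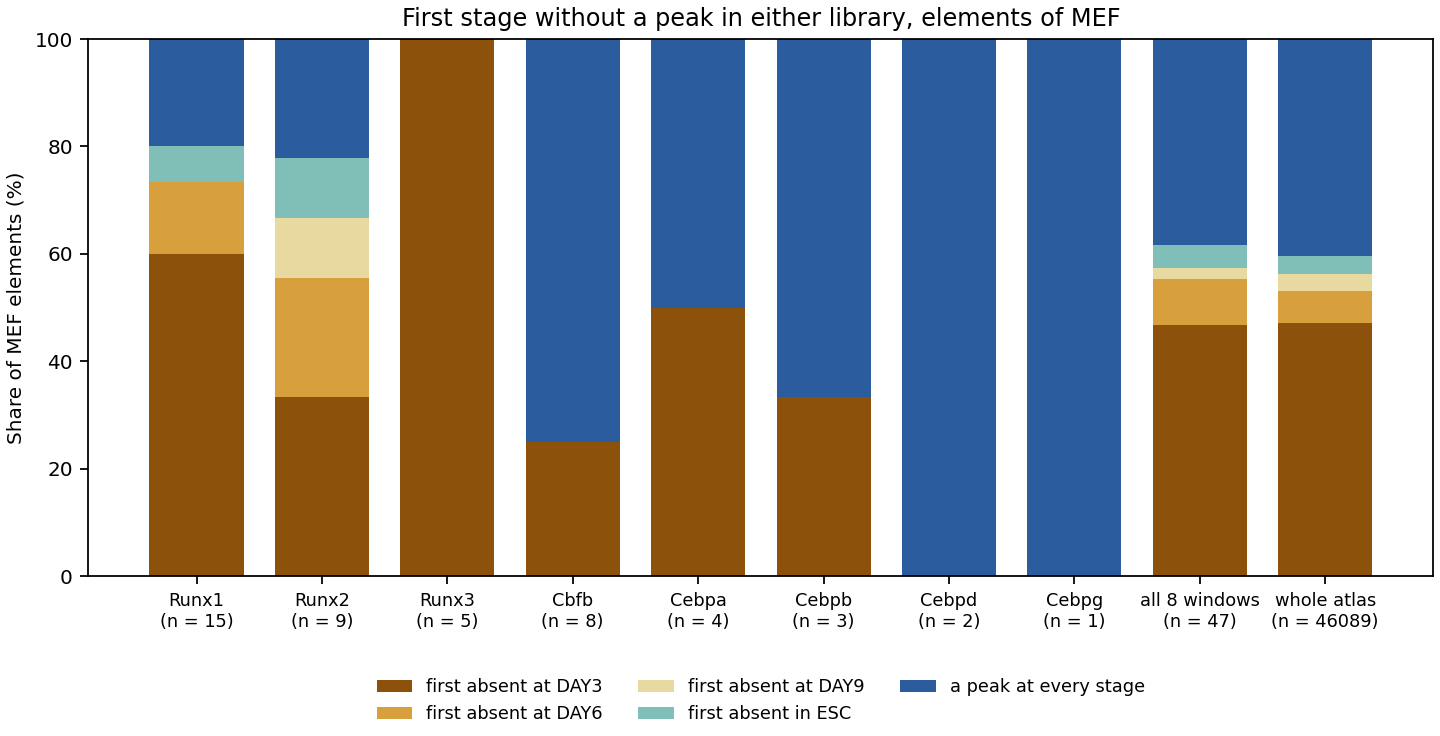
Share of MEF elements in percent (y axis) by the first stage at which neither library listed a peak (colours), for each gene window, all 8 windows and the whole atlas (x axis, with the number of elements n). Runx3 has 5 of 5 absent at DAY3, Runx1 9 of 15, and Cbfb keeps 6 of 8 at every stage.

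None of the 8 MEF elements at a start in the promoter table, neighbours included, lacked a DAY3 peak, against 4.98% in the atlas. Away from these starts 22 of 39 did (56.4%, atlas 59.0%). The 39 include the region at the lower end of Cebpd, which has no entry in that table. Absence at DAY3 also went with strength. Of 20 MEF elements at or above the atlas median in mean −log10 p (19.4), 1 lacked a DAY3 peak (5.0%, atlas 29.6%), and of the 27 below it, 21 did (77.8%, atlas 64.7%). The median of the mean MEF fold was 4.04 for the 22 elements absent at DAY3 and 7.69 for the 18 never absent, against 4.73 and 6.97 in the atlas.

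The 1 strong element absent at DAY3 lies inside Cbfb, 16.1 kb downstream of its start (chr8:105186400-105187067). Its folds were 16.5 and 15.0 in MEF, and none of the 8 later lists had a peak there. It ranks at the 95.5th percentile of MEF regions by −log10 p. The Cbfb start itself, with lower MEF folds of 10.5 and 6.88, was listed in all 10 libraries. The exons and introns of the genes were not used here, so regions are placed only inside or outside a gene. A region upstream of Cbfb, chr8:105164123-105165629, was also listed only in MEF, with folds of 5.92 and 3.15; it was chosen after its values were seen.

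Runx2 held the other MEF element of like strength, chr17:44500080-44500970, inside the gene and 314 kb downstream of its outermost start. Its folds were 15.7 and 11.5 in MEF and 4.28 in DAY3 replicate 1. DAY3 replicate 2 and all 4 libraries of DAY6 and DAY9 had no peak, and ESC replicate 1 listed it with a fold of 4.91. The second named Runx2 element (chr17:44776577-44777907) lies within the Runx2 gene at the start of Supt3, a gene for a subunit of the SAGA coactivator complex that overlaps Runx2. It was listed in all 10 libraries, with folds of 14.7 and 7.19 in MEF and of 12.6 and 11.7 in ESC.

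Runx2 elements closed at several times, as the next 3, chosen after their values were seen, show. The region chr17:44717764-44718859 had folds of 6.98 and 4.08 in MEF and no later peak. The region chr17:44709586-44710434 had folds of 12.2 and 6.65 at MEF, 5.87 and 7.01 at DAY3, and 6.96 and 7.51 at DAY6, and was absent from DAY9 and ESC. The region chr17:44767091-44768017 had peaks in all 8 libraries up to DAY9, with folds from 2.63 (DAY9 replicate 2) to 8.41 (MEF replicate 1), and in neither ESC library. Among the 9 MEF elements of Runx2, first absence therefore occurred at each of the 4 later stages.

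In Runx1, the strongest MEF element by −log10 p besides the proximal start was chr16:92620682-92621687, inside the gene. Its folds were 6.78 and 4.96 at MEF and 3.51 at DAY3 replicate 2, with no peak at DAY6 or DAY9, and 6.47 and 2.94 at ESC. It is 1 of the 2 elements listed again after an absence. The other, chr16:92654377-92655112, had folds of 4.72 and 4.04 at MEF and 3.06 and 3.03 at DAY3, no DAY6 peak, 3.6 and 2.87 at DAY9 and no ESC peak. Fibroblast marker genes with a peak numbered 6 of 10 in each ESC library and 9 of 10 in each MEF library. In the libraries of DAY3, DAY6 and DAY9 they numbered 6 to 8. The part of feeder cells in the ESC peaks of Runx1 was not tested.

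The 9 Runx1 elements absent at DAY3 were all modest, with folds from 2.68 to 6.34 in the MEF libraries. The highest of these, chosen after their values were seen, were chr16:92788415-92788946 with 6.34 and 3.0, and chr16:92581809-92582324 with 6.12 and 4.47. Of the 9, 8 had no later peak, and chr16:92827716-92828575, just upstream of the distal start, was listed again in ESC replicate 1 with a fold of 4.24.

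All 5 MEF elements of Runx3 lay below the atlas median in strength. The 2 strongest by −log10 p, chr4:135095416-135096132 and chr4:135189570-135189992, lie between genes, with folds of 4.08 and 4.72, and of 4.08 and 3.97. They rank at the 30.1th and 20.0th percentiles of MEF regions. Across the 5, MEF folds ran from 2.79 to 5.43.

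**Figure D4:**
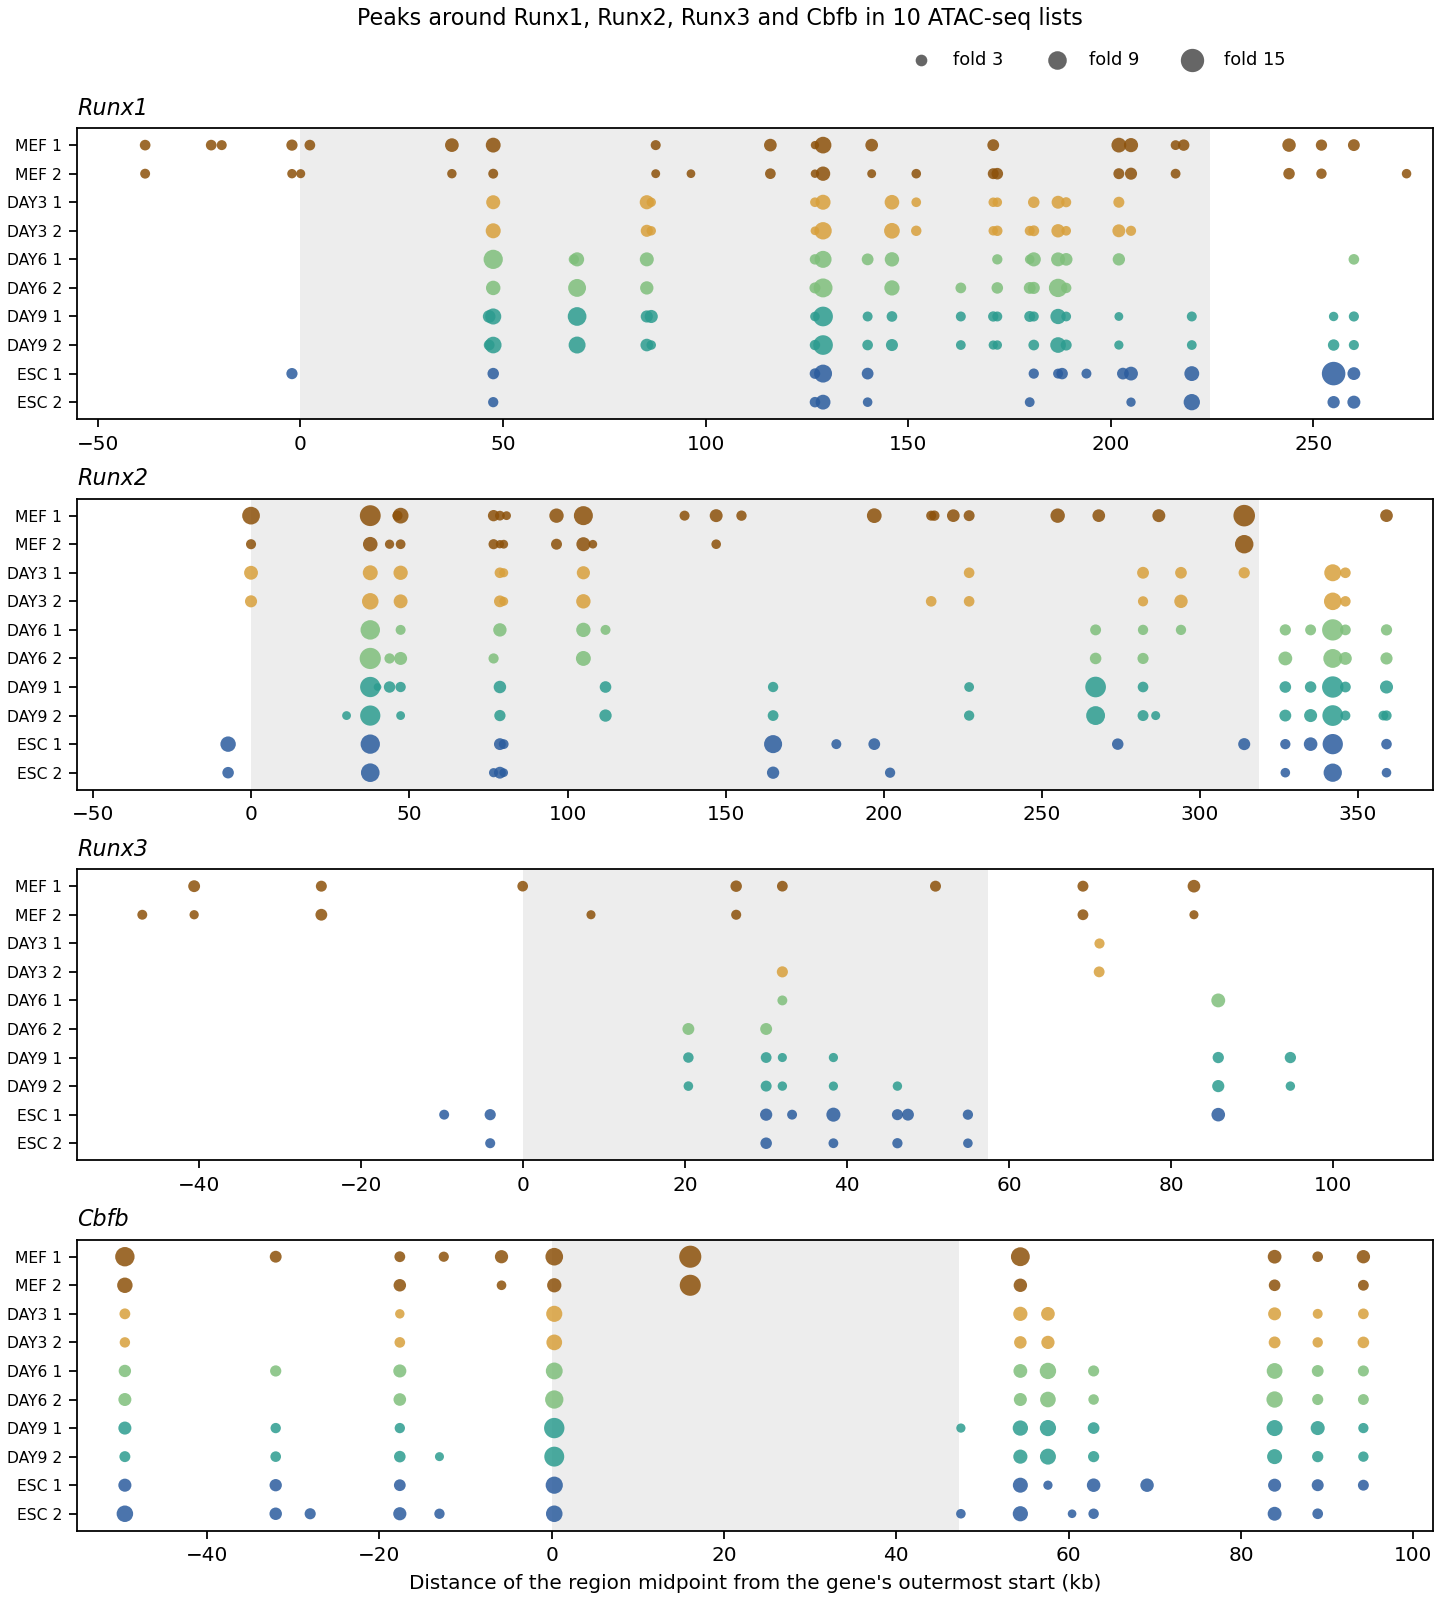
Regions with a peak around Runx1, Runx2, Runx3 and Cbfb, by library (y axis) and distance in kb from the gene's outermost start in the direction of transcription (x axis). Dot area follows the authors' fold and grey shading is the gene body. The column of dots at the Cbfb start runs through all 10 libraries, while the Cbfb region 16.1 kb downstream has dots in the 2 MEF libraries only.

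Of the 48 regions in the C/EBP windows, 7 (14.6%, atlas 7.35%) were in all 10 lists and 21 (43.8%, atlas 37.9%) in a single list. Besides their starts, chr7:35171613-35172309 downstream of Cebpa was listed in all 10 libraries with folds of 10.0 and 4.06 in MEF and of 8.62 and 3.25 in ESC. So was chr2:167661315-167662115, inside Tmem189 upstream of Cebpb, with 11.7 and 7.2 in MEF and 9.52 and 9.97 in ESC. So was chr16:15862188-15863681, inside Mzt2 near Cebpd, with 8.22 and 6.79 in MEF and 12.0 and 9.13 in ESC. Over the 8 windows, 16 of 172 regions (9.3%, atlas 7.35%) were in all 10 lists, with 5 in the Cbfb window, 3 in that of Runx1 and 1 in that of Runx2.

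The 3 C/EBP elements listed in MEF alone were weak. They are chr7:35127077-35127575 (folds 4.89 and 4.83) and chr7:35163524-35164032 (4.08 and 3.93) downstream of Cebpa, and chr2:167649056-167649651 (4.08 and 3.25) upstream of Cebpb. The region shared by the Cebpa and Cebpg windows, chr7:35085854-35086992, was listed in every library except MEF replicate 2, with folds of 10.5 in MEF replicate 1 and between 3.17 and 9.9 elsewhere. It is therefore no MEF element by the rule, although 1 MEF library lists it strongly.

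**Figure D5:**
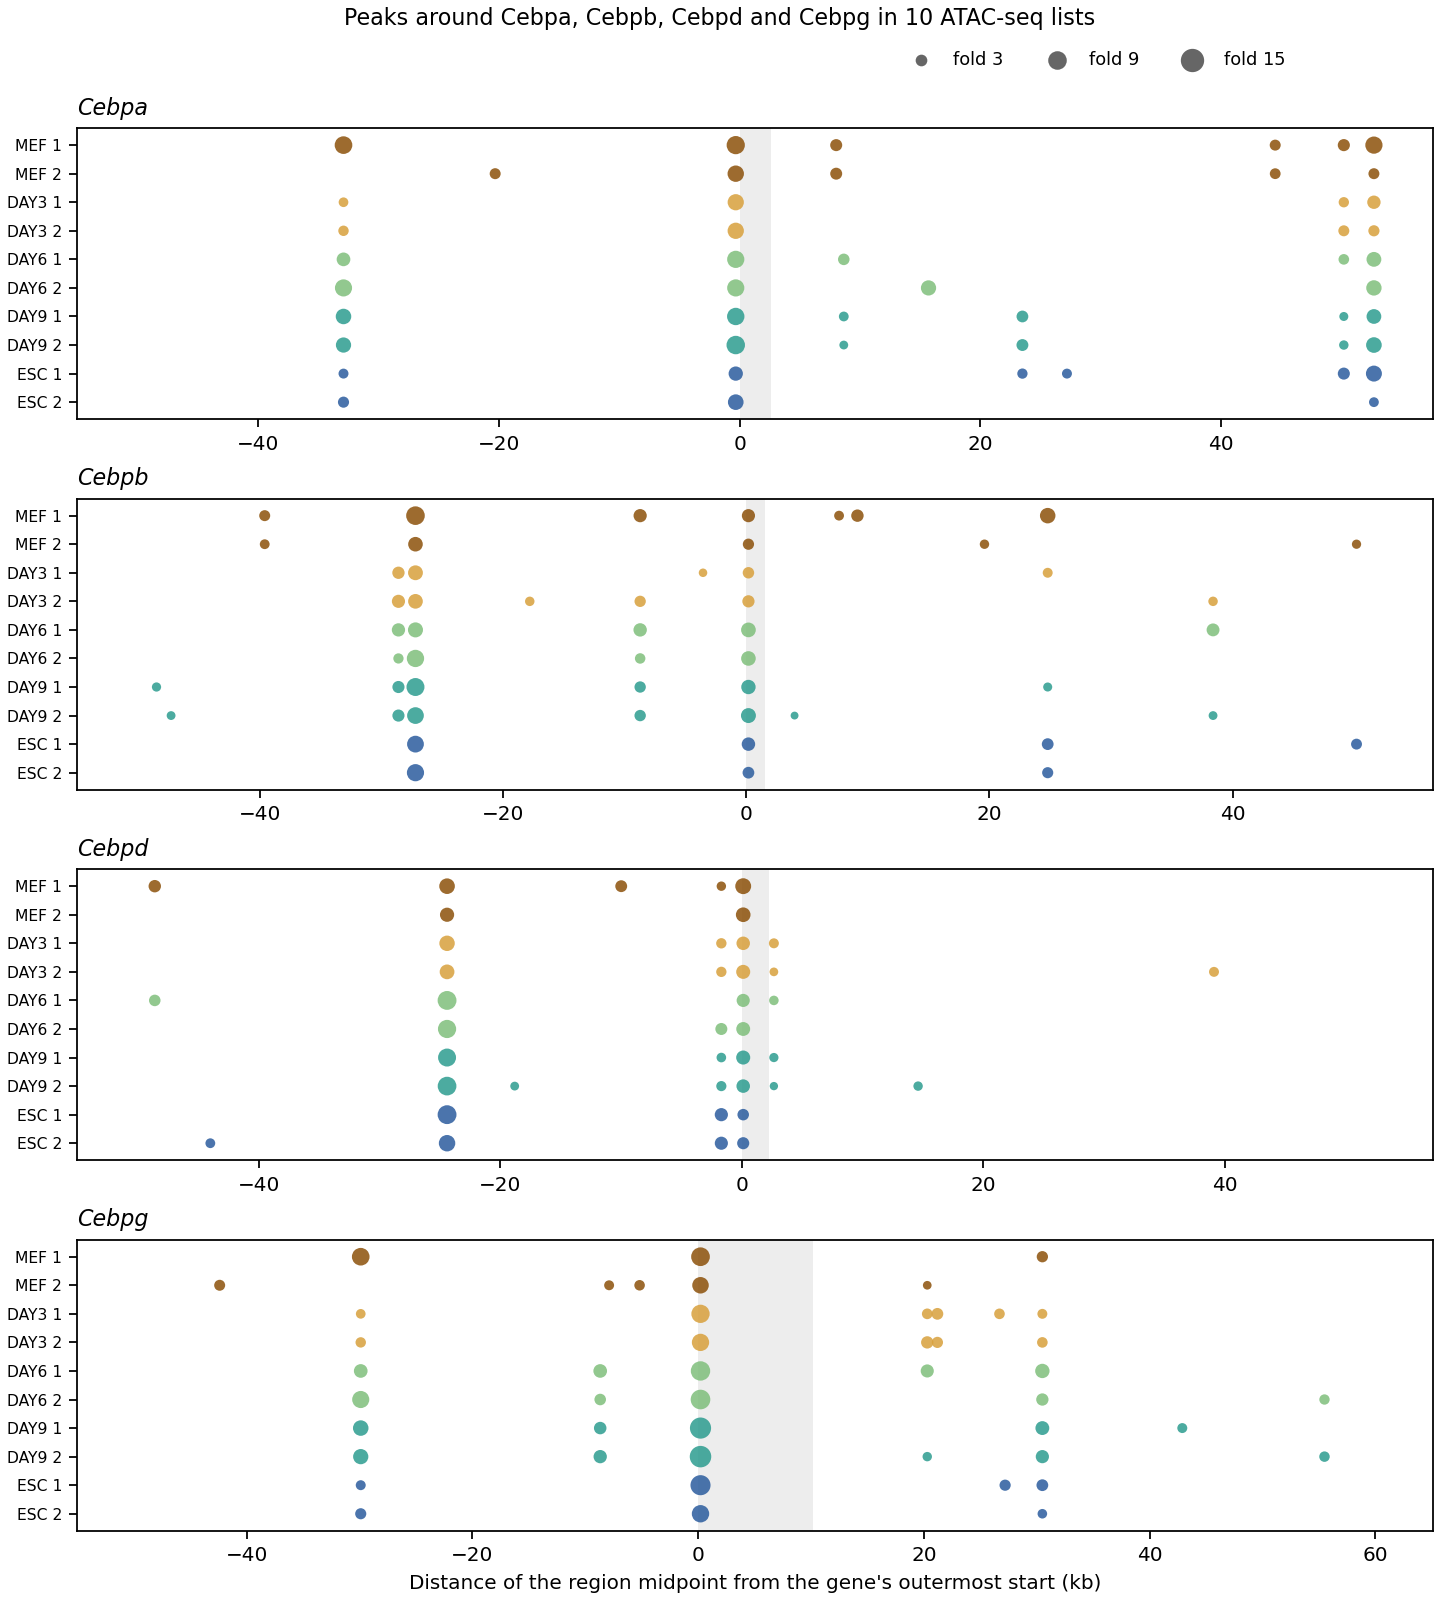
Regions with a peak around Cebpa, Cebpb, Cebpd and Cebpg, by library (y axis) and distance in kb from the gene start (x axis; for Cebpd from its lower coordinate). Dot area follows the authors' fold and grey shading is the gene body. Each gene has a column of dots at its start that runs through all 10 libraries.

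New elements appeared while MEF elements closed. Of the DAY3 elements, 15 of 48 (31.2%, atlas 32.0%) had no MEF peak, as had 16 of 41 at DAY6 (39.0%, atlas 43.6%) and 32 of 65 at DAY9 (49.2%, atlas 54.6%). In ESC the share was lower than in the atlas: 13 of 40 ESC elements (32.5%) had no MEF peak, against 56.6%, a difference that was not tested. Several ESC elements not counted as gained had a peak in only 1 MEF library, mostly MEF replicate 1. Examples are chr16:92565635-92566226 in the Runx1 window and chr8:105258962-105260111 in that of Cbfb, with folds of 4.76 and 3.81 there. By contrast, chr17:44734514-44735552 in Runx2 had a peak in MEF replicate 2 alone, with a fold of 2.65. The share with a MEF library left out was not counted. Of the 13 gained ESC elements, 12 lie in the Runx windows (3 in Runx1, 4 in Runx2 and 5 in Runx3) and 1 in that of Cbfb. None of the 11 ESC elements in the C/EBP windows was gained relative to MEF, but this rests in part on MEF replicate 1. The regions chr7:35085854-35086992, chr2:167713292-167714135, chr16:15885411-15885781 and chr7:35025817-35026383 had a peak in that MEF library alone. Their folds there were 10.5, 8.11, 3.0 and 4.3, and MEF replicate 2 had no peak at any of them.

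Among the 13 gained ESC elements, 6 (46.2%) were first listed in both libraries of a stage at DAY9, against 15.7% of the atlas, and 4 (30.8%) in ESC, against 60.9%. DAY6 accounted for 2 (15.4%, atlas 14.7%) and DAY3 for 1 (7.69%, atlas 8.69%). These shares rest on 13 regions, and their differences from the atlas were not tested. The DAY3 case is chr17:44472473-44473412, beyond the far end of Runx2, with folds of 9.74 and 10.4 at DAY3, 15.3 and 12.0 at DAY6, 15.4 and 14.5 at DAY9, and 13.9 and 11.3 at ESC. Neither MEF library listed this region.

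Of the 6 regions first listed in both libraries at DAY9, 5 had lower folds there than in ESC. Inside Runx2, chr17:44648959-44649647 had folds of 3.6 and 3.94 in DAY9 and of 11.0 and 5.11 in ESC. Beyond the far end of Runx1, chr16:92571151-92571804 had 3.0 and 4.42 at DAY9 and 18.7 and 5.11 at ESC, and chr16:92605577-92606571, inside the gene, had 3.36 and 3.22 at DAY9 and 7.46 and 8.98 at ESC. In Runx3, chr4:135158661-135159137 had 2.88 and 2.87 in DAY9 and 6.69 and 3.25 in ESC. The Runx3 region chr4:135150384-135150869 departed least, with 3.94 and 4.08 in DAY9 and 5.06 and 4.49 in ESC. The remaining one, chr16:92685704-92686359 inside Runx1, had overlapping folds of 3.36 and 3.82 in DAY9 and of 4.68 and 3.1 in ESC. Near Cbfb, chr8:105233202-105234045 was first an element at DAY6, with 4.17 and 3.76, and reached 6.19 and 3.7 in ESC.

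A further 20 of the 172 regions (11.6%, atlas 9.61%) were elements of DAY3, DAY6 or DAY9 without a peak in any MEF or ESC library. Runx1 held 7, Runx2 5, Runx3 3, Cebpg 2, and Cebpa, Cebpb and Cebpd 1 each. Of the 20, 6 were elements of all 3 days, as were 3520 of the 20067 such regions of the atlas. The examples that follow were chosen after their values were seen. Inside Runx1, chr16:92679715-92680684 had folds of 7.24 and 8.33 at DAY3, 7.0 and 7.84 at DAY6, and 3.84 and 4.9 at DAY9. Also inside Runx1, chr16:92740023-92741075 had 6.76 and 4.96 at DAY3, 6.63 and 6.01 at DAY6, and 4.98 and 5.41 at DAY9.

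Other transient regions came later. The Runx1 region chr16:92757440-92758093 had no DAY3 peak, folds of 6.74 and 10.8 in DAY6 and of 11.8 and 9.69 in DAY9, and no ESC peak. The Runx2 region chr17:44547870-44548678 had 4.04 and 4.51 in DAY6 and 14.4 and 12.0 in DAY9. In the Cebpb window, chr2:167659567-167660981 inside Tmem189 was listed on all 3 days with folds from 3.55 to 5.95. Of the 19 DAY9 elements of Runx1, 12 (63.2%, atlas 54.6%) had no MEF peak, a difference from the atlas that was not tested. The similar numbers of Runx1 regions with a peak in MEF and DAY9 thus stand for partly different regions.

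Other genes of the RUNX and C/EBP pathways showed no called difference either. The list holds 16 genes, among them the corepressors Tle1, Tle3 and Tle4, the dimer partners Ddit3 and Atf4, and the AP-1 subunits Fos and Jun. The exact permutation test called 0 of the 16, and 5 had an unadjusted p under 0.05: Ddit3, Jun, Tle1, Hipk2 and Spi1, where 16.6% of all genes tested had one. Jun had 12 and 13 regions with a peak at MEF, 5 and 4 at DAY3, 4 and 4 at DAY6, 4 and 4 at DAY9, and 5 and 6 at ESC, by the exact test with p = 0.0357 and adjusted p = 0.264. The MEF values were the highest of Jun, and how many of all genes share this was not counted. Ddit3 had 6 and 6 at MEF and at DAY3, 9 and 10 at DAY6, 11 and 13 at DAY9, and 15 and 13 at ESC (exact p = 0.0143, adjusted 0.25). Summed over the 16 windows, 37 of 96 MEF elements (38.5%, atlas 47.1%) lacked a DAY3 peak.

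For the 4 genes with at least 5 MEF elements, the genes on other chromosomes with the most similar counts over the 10 libraries were found by Euclidean distance. Runx1 was closest to Nup93 (5.83), Prkag2 (5.83) and Lrig1 (6.16), and Runx2 to Med24 (4.0), Parva (5.48) and Syt16 (6.24). Runx3 was closest to Ermp1, Lctl and Tmem213 (3.16 each), and Cbfb to Zbtb22 (2.24), Adamts4 (2.45) and Zfp146 (2.45). The 10 counts share list length and depth with those of every other gene.

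The labels were set against marker genes, counted as those with a peak in or within 1 kb of the gene. Of 8 pluripotency genes, 3 had a peak in each MEF library and 8 in each ESC library. Of 10 fibroblast genes, 9 had one in each MEF library, with Lum listed in none of the 10 libraries. In MEF, 2 of 4 bone genes and 2 of 4 fat genes had a peak. Of the blood genes, Ptprc, Itgam and Csf1r had a peak in both MEF libraries and Tal1 in MEF replicate 1, while Gata1 and Cd3e had none in any library. The bone genes Bglap and Ibsp and, in MEF, the fat genes Fabp4 and Adipoq had none. The 2 libraries of DAY3 and of DAY9 differed by little more than counting noise (ratios to counting noise of 1.33 and 1.42), and each pair was therefore averaged to 1 sample in the tests, while the pairs of DAY6, ESC and MEF gave 3.62, 9.47 and 11.4.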

How the data were processed

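Each of the 10 libraries has 1 peak list. Per the submitters' processing notes, Bowtie2 2.3.2, MACS2 2.1.1, deepTools 2.3.6 and mm10 were used, without stated roles; filters are not given in the sources used here. The lists have no header and the narrowPeak layout. The score the authors deposited is 10 times the −log10 p-value, rounded down, in at least 99.99% of the peaks of each list. The authors deposited fold enrichment, a linear ratio of each summit over the background around it, and −log10 values of p and of q; the lowest −log10 p-value is 5.0. Peaks were listed per library. Read depth is unknown; the commonest expected pileup, recovered from fold and p, served as relative depth.

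The 8 genes and all lists were chosen with earlier results of these data known. Windows came from RefSeq gene positions (GRCm38.p6). A library had a region if a peak overlapped it by at least 1 bp. Closing is the first stage with no peak in either library. Named elements are those at gene starts, the 2 per gene with the highest mean −log10 p in MEF, and the 2 highest in ESC without a MEF peak. With 2 libraries a stage, single regions have no test. For genes with at least 5 regions, the share of the sum of squares between stages was tested over the 420 arrangements of 8 samples, the DAY3 and the DAY9 libraries being averaged within their stage. The stage test was also run on simulated counts, drawn independently for each library and with equal list lengths. That run does not cover the real differences in list length or in spread between libraries. Python 3.11.15, NumPy 2.4.6, pandas 2.3.3, SciPy 1.17.1 and matplotlib 3.10.9 were used. Alternatives were list length, overlap, window, the definition of closing, the samples counted, a replicate block, the filter and leaving out each library. Other assays of the series were not analysed here. One gene of the blood marker list, and so that list's total, is not reported here.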

Additional observations from a re-analysis of the deposited data

How the results depend on the processing

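The 8 windows held 47 MEF and 40 ESC elements as reported. With all lists cut to 45497 peaks they held 29 and 21, and 24.1% of the MEF elements lacked a DAY3 peak (atlas 37.3%). With the top 50% of each list they held 22 and 20. Of the MEF elements, 31.8% then lacked a DAY3 peak (atlas 44.5%) and 31.8% were lost in ESC (atlas 46.6%). Both settings keep fewer peaks by construction. Leaving out each library in turn gave 47 to 81 MEF elements and 40 to 63 ESC elements. Of the MEF elements, 46.8% to 56.8% then lacked a DAY3 peak (atlas 47.1% to 59.1%). Between 53.2% and 61.9% were lost in ESC (atlas 50.5% to 59.6%). Called genes numbered 0 throughout, among all genes and among the 8. Outside the runs without a library, 32 values for the 8 windows or the tests stayed and the 7 above for the windows moved. The replicate block called 0 genes, with 4301 at an unadjusted p under 0.05 (120 arrangements). No pairing by replicate number was seen in which regions were listed: for equal numbers, the correlation of deviations from the stage means ran from -0.0095 to 0.0221. Whether libraries of equal number share a culture or run was not tested. Taken as 10 separate libraries, 0 genes were called by the exact permutation test, and the smallest adjusted p was 0.0686. An unadjusted p under 0.05 was found for 2 of the 8, and for 8247 of all 19302 genes tested. A missing peak means only that a region did not pass the listing limit, which more depth makes easier to pass. The background pileup was 3.415 and 8.322 in MEF and 5.304 and 5.27 in DAY3. The part of depth in the missing peaks was not tested.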

Other observations

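Pparg, the nuclear receptor that C/EBP factors switch on in fat cell formation, had 5 regions with a peak in or within 1 kb of the gene in each MEF library and 1 in each of the 8 other libraries. Alpl, the alkaline phosphatase gene used as a marker of bone cells and of early pluripotent cells, had 1 in each MEF library, 4 in each library of DAY3, DAY6 and DAY9, and 3 in each ESC library. These counts were singled out after they were seen and have no test of their own.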
